A study of Mus musculus with 6 samples.

Results

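The rhomboid family genes of MIN6 cells are described here: Rhbdd3, Rhbdd2, Rhbdd1, Rhbdl1, Rhbdl3, Parl, Rhbdf1 and Rhbdf2, 8 of the 55487 genes in the count table. They were taken by gene symbol, and all 8 had enough counts to be among the 21141 genes tested. The family was chosen by the PTHrP against DsRed difference of Rhbdd3 in these same libraries. Values of the members in that contrast are therefore a description, with no test.

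The study transfected MIN6, a mouse insulin-secreting beta cell line, by lipofection. The 2 groups were cells given PTHrP in its full-length form (parathyroid hormone-related protein, a secreted peptide made from the Pthlh gene) and cells given the DsRed control vector, with 3 RNA-seq libraries each. Transfection was transient, RNA was taken at most 3 days later, and no untransfected cells were analysed here. In such bulk libraries a large change in few cells and a small change in all cells cannot be told apart.

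Library totals were 84427033 to 94613684 counts, and all 10 beta cell markers looked at were present, none below 107.7 CPM (counts scaled to library size) in any library. Summed markers of fibroblasts were 4.28 to 4.61 CPM in PTHrP and 4.46 to 5.25 CPM in DsRed. Those of immune cells were 1.80 to 2.35 CPM in PTHrP and 2.43 to 2.82 CPM in DsRed. Those of other islet cells were 136.4 to 176.5 CPM in PTHrP and 145.3 to 151.5 CPM in DsRed. Acinar markers summed to 1.48 to 2.31 CPM in PTHrP and 1.40 to 2.33 CPM in DsRed, with 1 of 4, the factor Ptf1a, at no count in any library, and endothelial markers to 0.714 to 1.94 CPM in PTHrP and 1.03 to 2.99 CPM in DsRed. The part of other cells in the results was not tested. Pthlh had 697, 553 and 797 counts in PTHrP libraries, against 0, 4 and 8 counts in DsRed libraries. PTHrP replicate 2 stood apart from the other libraries: 213 genes passed the test without it, against 9 with all libraries.

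Rhomboids are serine proteases whose active site lies inside the membrane, where they cut the transmembrane segments of other proteins. Relatives that have lost the catalytic residues keep the fold and act as binding partners, as the iRhoms do for the sheddase ADAM17. Members sit in different compartments: RHBDD1 (RHBDL4) cuts substrates in the endoplasmic reticulum (ER) for degradation, RHBDL1 and RHBDL3 belong to the secretory pathway, and PARL works in the inner mitochondrial membrane. RHBDD3 carries a ubiquitin-associated domain, and in mouse dendritic cells it has been reported to bind NEMO, a regulator of NF-kB signalling. RHBDD2 is a Golgi membrane protein whose substrates are not established.

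Rhbdd3 lies on chromosome 11 of the mouse build GRCm38, from 5098926 to 5106093 on the plus strand, and its start is shared with a neighbour. Ewsr1, which encodes an RNA-binding protein, runs the other way from 5099266 down to 5069689. The RefSeq promoter table (GRCm38.p6) gives Rhbdd3 3 windows, each of 250 bases before a start and 50 after it. The second start lies 475 bases and the third 892 bases downstream of the first. The first window shares 276 of its 300 bases with the window of Ewsr1 on the other strand, and the first Rhbdd3 start lies 177 bases from that of Ewsr1. The windows are shown because they are the start region of the member with the largest difference per SE, and because the counts do not tell which start was used. Capitals mark GGGCGG (GC box) or CCAAT in either direction, and the first window holds neither.
Rhbdd3 window 1, chr11:5099023-5099322, plus strand: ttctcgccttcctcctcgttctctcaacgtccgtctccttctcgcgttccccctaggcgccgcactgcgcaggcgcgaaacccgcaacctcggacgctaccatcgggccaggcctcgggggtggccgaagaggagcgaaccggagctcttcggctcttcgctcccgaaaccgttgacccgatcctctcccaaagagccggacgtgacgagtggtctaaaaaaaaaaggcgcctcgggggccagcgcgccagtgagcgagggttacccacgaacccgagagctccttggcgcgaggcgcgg
Rhbdd3 window 2, chr11:5099498-5099797, plus strand: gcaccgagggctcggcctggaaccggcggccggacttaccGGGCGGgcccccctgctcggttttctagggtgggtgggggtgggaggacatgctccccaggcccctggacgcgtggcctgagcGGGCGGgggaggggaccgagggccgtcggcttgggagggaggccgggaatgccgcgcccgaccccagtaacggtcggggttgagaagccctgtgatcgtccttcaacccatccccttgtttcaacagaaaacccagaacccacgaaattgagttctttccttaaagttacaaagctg
Rhbdd3 window 3, chr11:5099915-5100214, plus strand: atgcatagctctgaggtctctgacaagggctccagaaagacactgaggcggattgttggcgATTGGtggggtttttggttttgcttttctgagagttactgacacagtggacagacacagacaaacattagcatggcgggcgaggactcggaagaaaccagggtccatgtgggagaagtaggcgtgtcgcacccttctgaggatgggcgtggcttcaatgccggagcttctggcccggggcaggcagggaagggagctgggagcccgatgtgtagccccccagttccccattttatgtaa

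The windows differ in base composition. The first is 65.7% G and C with 38 CpG, more CpG than 95.0% of the 32851 windows in the table. The second has 65.3% and 23 CpG, and the third 55.7% and 11 CpG. Searched on both strands, the windows of the members (8 windows of 5 members: Rhbdd1, Rhbdd2, Rhbdd3, Rhbdl1 and Parl) held no TGATGNAA (core of the ATF4 amino acid response element), no TGACGTCA (cAMP response element) and no TGACGTGG (core bound by XBP1). Of all windows, 3.97%, 1.79% and 0.676% held these letters, in the order named. CCAAT was present in 3 of the 8 (37.4% of all windows) and GGGCGG in 3 of the 8 (35.7% of all windows). The motifs do not overlap each other in the printed windows.

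**Figure D1:**
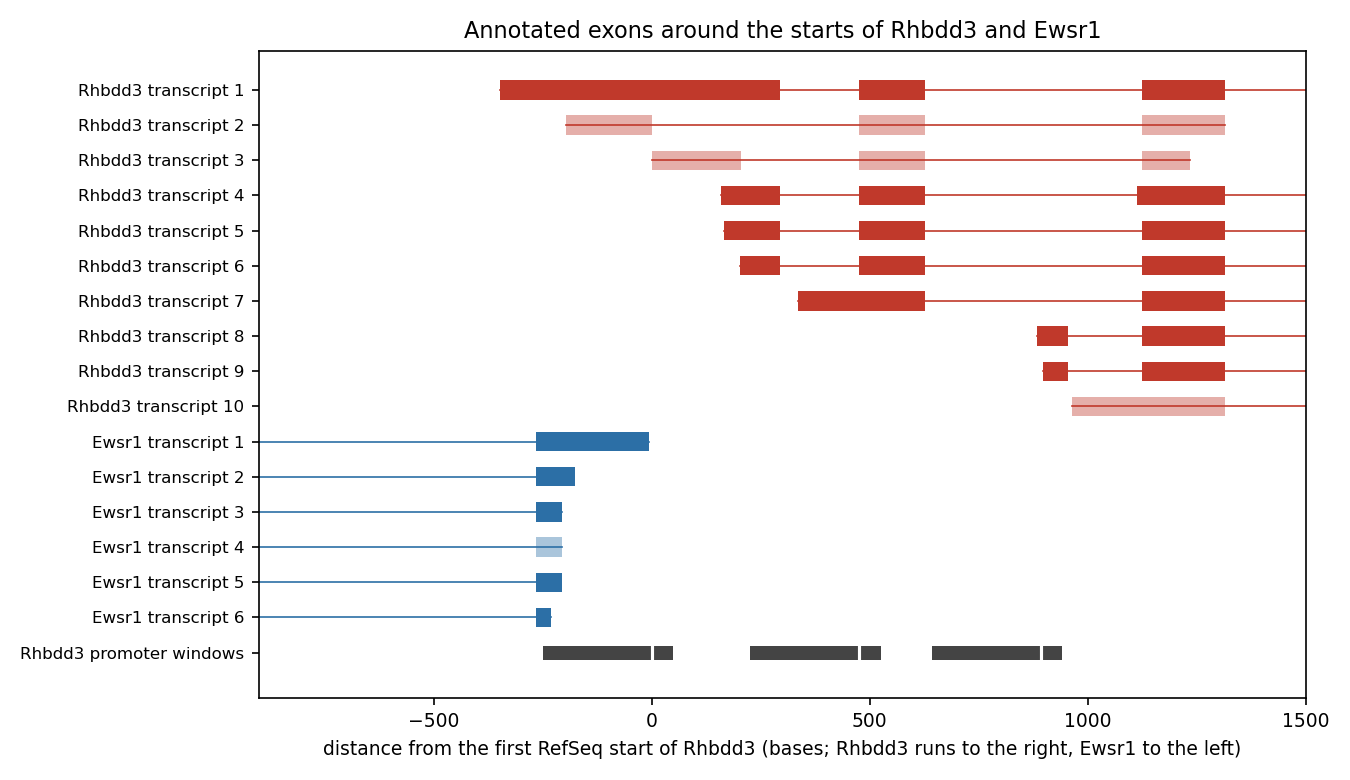
Exons of annotated transcripts (boxes; pale boxes are transcripts without a coding label) around the starts of Rhbdd3 (red) and Ewsr1 (blue), with the 3 Rhbdd3 promoter windows (black, start marked in white). The x axis is the distance in bases from the first RefSeq start of Rhbdd3. First exons of the 2 genes overlap left of 0 over 258 bases.

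Rhbdd3 was higher in PTHrP cells, and the libraries of each group lay close together. It had 3939, 4125 and 4494 counts in PTHrP and 2440, 2903 and 2656 counts in DsRed. Scaled for library size by TMM, these are 45.8, 48.5 and 47.2 CPM in PTHrP, against 28.2, 33.1 and 29.0 CPM in DsRed. The lowest PTHrP library lay above the highest DsRed library, DsRed replicate 2. The log2 fold change was 0.65 (approximate SE 0.08), a ratio of 1.56, larger than that of 95.6% of the genes tested.

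Rhbdd3 was 1 of 9 genes (0.0426% of those tested) with an adjusted p under 0.05 in the edgeR quasi-likelihood test over all genes. That call is what brought the family into view, and nothing is read from it. It also depended on single libraries: the fold change was 0.60 to 0.72 when 1 library was left out, but the adjusted p passed only without PTHrP replicate 2 and missed in the fits without PTHrP replicate 1 (0.0620), PTHrP replicate 3 (0.0702), DsRed replicate 1 (0.0974), DsRed replicate 2 (0.0605) or DsRed replicate 3 (0.0709). The biological coefficient of variation of Rhbdd3 was 8.42%, against a median of 8.48% in 2194 genes within 0.5 log2 CPM of its level. edgeR draws this estimate toward that of genes at a like level, so nearness to the median is partly built in. How close its replicates were is therefore not read from it. Taken directly from the CPM values, the coefficient of variation over replicates was 2.93% in PTHrP and 8.74% in DsRed.

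Ewsr1, at the same start, was present at a higher count. It had 623, 611 and 573 CPM in PTHrP, against 574, 605 and 557 CPM in DsRed, and the groups overlapped (log2 fold change 0.06, SE 0.06, adjusted p = 0.816 with edgeR). Per 1000 counts of Ewsr1 there were 73.4, 79.4 and 82.5 counts of Rhbdd3 in PTHrP, against 49.2, 54.8 and 52.1 in DsRed, a measure that does not depend on library scaling. Exons of both genes cover 258 bases, from 5099009 to 5099266, which is 9.25% of the exon bases of Rhbdd3. Of the 10 annotated Rhbdd3 transcripts 2 have an exon there. Reads in that stretch cannot be assigned without strand, the strand setting of the counting is not given in the sources used here, and their part in the difference was not tested.

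Other tested genes near Rhbdd3 did not pass the test. Emid1, whose end lies 172 bases past the end of Rhbdd3 on the other strand, was at 0.614 ± 0.175 CPM in PTHrP, against 0.506 ± 0.149 CPM in DsRed (SD, n = 3 each). The cytoskeletal linker gene Gas2l1 and the small GTPase gene Rasl10a had log2 fold changes of 0.03 and 0.13, and Ap1b1, a subunit of a clathrin adaptor, 0.10. Kremen1, a Wnt pathway receptor gene 85459 bases away, had 38.6 ± 0.41 CPM in PTHrP, against 45.7 ± 4.24 CPM in DsRed (log2 fold change -0.24, edgeR adjusted p = 0.395). Both genes next to Rhbdd3 thus had overlapping groups, and Emid1 was too low for a precise fold change (0.28, SE 0.38).

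Rhbdd2 (chromosome 5, 135632618 to 135646448, plus strand) had overlapping groups. It had 71.1, 68.9 and 68.1 CPM in PTHrP, against 69.7, 75.8 and 64.8 CPM in DsRed, with a log2 fold change of -0.02 (SE 0.07). The DsRed libraries spanned a wider range than the PTHrP libraries, which lay inside it. Its exons also cover those of the pseudogenes Gm15607 (358 bases) and Gm21839 (378 bases) on the other strand, neither of which had a count in any library.

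**Figure D2:**
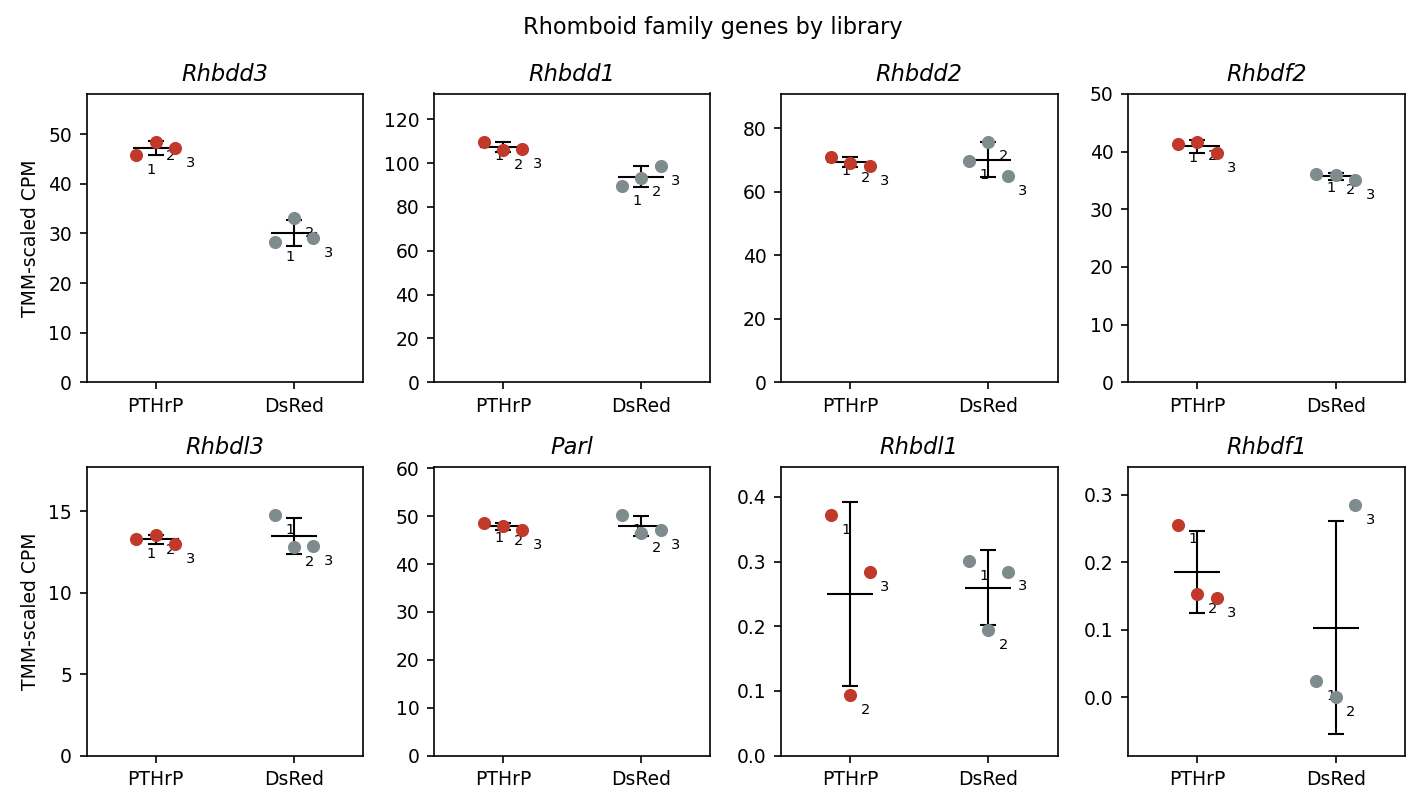
TMM-scaled CPM of the 8 genes in each library (y axis from 0, except for Rhbdf1, whose lower error bar passes below 0), with the replicate number beside each point. Bars are mean ± SD of 3 libraries. PTHrP points lie above all DsRed points for Rhbdd3, Rhbdd1 and Rhbdf2, and the groups overlap for the other 5 genes.

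Among the catalytic rhomboids, Rhbdd1 (chromosome 1, 82316452 to 82445366, plus strand), the ER protease, was modestly higher in PTHrP. Its levels were 109.8, 105.8 and 106.2 CPM in PTHrP, against 89.6, 93.3 and 98.7 CPM in DsRed. The groups did not overlap, with DsRed replicate 3 nearest to the PTHrP libraries. The log2 fold change was 0.19 (SE 0.06), a ratio of 1.14, and it lay between 0.16 and 0.23 when 1 library was left out.

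Parl (chromosome 16, 20279818 to 20302387, minus strand), whose mitochondrial protease product cuts PINK1 and PGAM5, varied least over the 6 libraries, with a root mean square deviation of 0.04 in log2 CPM. It had 48.5, 47.9 and 47.1 CPM in PTHrP, against 50.2, 46.5 and 47.1 CPM in DsRed. The groups overlapped, and the log2 fold change of -0.0025 (SE 0.07) changed sign with small changes of scaling. The coefficient of variation over replicates was 1.49% in PTHrP and 4.18% in DsRed.

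Rhbdl3 (chromosome 11, 80300912 to 80355955, plus strand), a member of the secretory pathway rhomboids, was present at a lower level. It had 13.3, 13.5 and 13.0 CPM in PTHrP, against 14.8, 12.8 and 12.9 CPM in DsRed, with a log2 fold change of -0.02 (SE 0.10). DsRed replicate 1 was the highest library, and the others lay together.

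Rhbdl1 (chromosome 17, 25834465 to 25837295, minus strand), the other secretory pathway member, had few counts. It had 32, 8 and 27 counts in PTHrP, against 26, 17 and 26 counts in DsRed. The groups overlapped, with PTHrP replicate 2 lowest (log2 fold change -0.05, SE 0.60; 0.33 without that library). In the annotation used here, 81.4% of its exon bases also belong to Gm20683 on the same strand, a gene with no count in any library. How the counting treated reads that fit both genes is not stated, and this level is uncertain.

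The iRhoms, which carry ADAM17 out of the ER, differed from each other in level. Rhbdf2 (iRhom2, chromosome 11, 116598165 to 116627019, minus strand) had 41.4, 41.7 and 39.7 CPM in PTHrP, against 36.2, 35.9 and 35.0 CPM in DsRed. The groups did not overlap and replicates lay close, with coefficients of variation of 2.68% in PTHrP and 1.72% in DsRed. The log2 fold change was 0.20 (SE 0.07), a ratio of 1.15, between 0.18 and 0.22 when 1 library was left out.

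Rhbdf1 (iRhom1, chromosome 11, 32209585 to 32222300, minus strand) had 22, 13 and 14 counts in PTHrP, against 2, 0 and 26 counts in DsRed. DsRed replicate 3 thus held the highest count of all, and the other DsRed libraries the lowest. Its log2 fold change of 0.83 had an SE of 1.11 and became 3.85 without DsRed replicate 3, so no direction can be read. At this depth its level is near the limit of what was counted.

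As a list, 4 of the 8 members had positive and 4 negative fold changes, with a median of 0.10 beside -0.01 over all genes tested. Groups did not overlap for 3 of the 8 (Rhbdd3, Rhbdd1 and Rhbdf2, all higher in PTHrP), where 8.45% of all genes tested had such groups with PTHrP higher. Since this contrast chose the family, nothing is read from these counts. Rhbdd3 was the only member past the adjusted threshold of edgeR with all libraries.

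**Figure D3:**
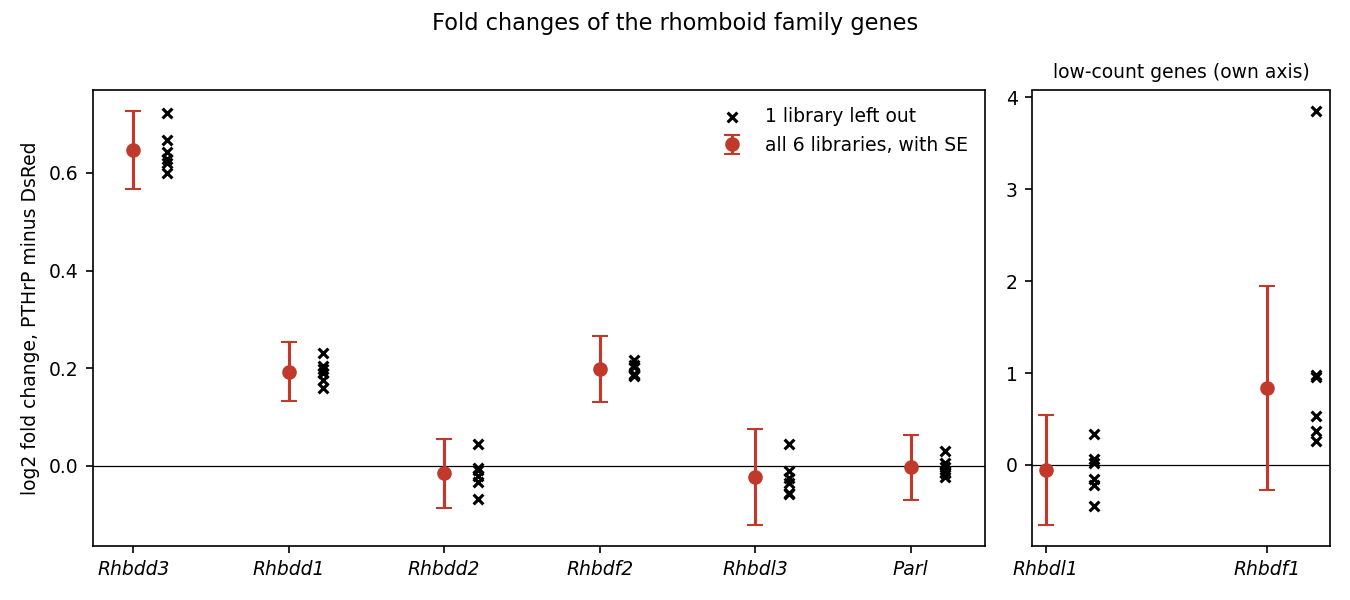
Log2 fold change of each gene, PTHrP minus DsRed, with all 6 libraries (red, bars are the approximate SE) and with 1 library left out (crosses). The low-count genes Rhbdl1 and Rhbdf1 have their own axis. Rhbdd3 keeps 0.60 to 0.72 and Rhbdf1 ranges from 0.26 to 3.85.

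Levels of different members can be compared only per length. Divided by the length of all their exons, the CPM values put 6 members at moderate and 2 at very low level. In PTHrP, Rhbdd3 was first with 16.9 ± 0.496 CPM per kb, ahead of Rhbdd1 (15.4 ± 0.312) and Parl (12.3 ± 0.183), with no overlap between them (SD, n = 3 libraries). In DsRed it had 10.8 ± 0.944 CPM per kb, behind Rhbdd1 (13.5 ± 0.659) and Parl (12.3 ± 0.515). Rhbdd1 and Parl overlapped in DsRed, while Rhbdd3 lay under both, with 11.88 CPM per kb in its highest library and 11.94 in the lowest of Parl.

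The order below these was the same in both groups: Rhbdd2, Rhbdf2, Rhbdl3, Rhbdl1 and Rhbdf1. Over all 6 libraries the means were 9.26, 7.24, 2.82, 0.148 and 0.0265 CPM per kb in that order, and no neighbours among these 5 overlapped. Rhbdd1 lay at the 81.8 percentile of genes tested and Rhbdf1 at the 2.10 percentile. With the mean length of coding transcripts in place of all exons, Rhbdd3 was again first in PTHrP (38.3 CPM per kb) and behind both in DsRed (24.5), but Parl, at 36.4 CPM per kb in both groups, then came before Rhbdd1. On that scale Rhbdd3 and Rhbdd1 overlapped in DsRed, at 22.95 to 26.93 CPM per kb for Rhbdd3 and 24.46 to 26.95 for Rhbdd1, and Rhbdl1 and Rhbdf1 overlapped in both groups.

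As a share of the summed per-length level of the 8 members, Rhbdd3 made up 25.3%, 26.8% and 26.5% in PTHrP, against 18.3%, 20.9% and 19.0% in DsRed. The sum itself was 64.5 ± 0.666 CPM per kb in PTHrP and 55.7 ± 1.08 CPM per kb in DsRed. Shares of Parl were 19.1 ± 0.12% in PTHrP and 22.1 ± 1.17% in DsRed, while those of Rhbdd1 (23.9 ± 0.428% in PTHrP, 24.2 ± 1.41% in DsRed) and Rhbdf2 (12.0 ± 0.204% in PTHrP, 12.1 ± 0.228% in DsRed) differed by less than their SD in DsRed. Shares sum to a whole, so 1 member's larger share lowers those of the others.

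**Figure D4:**
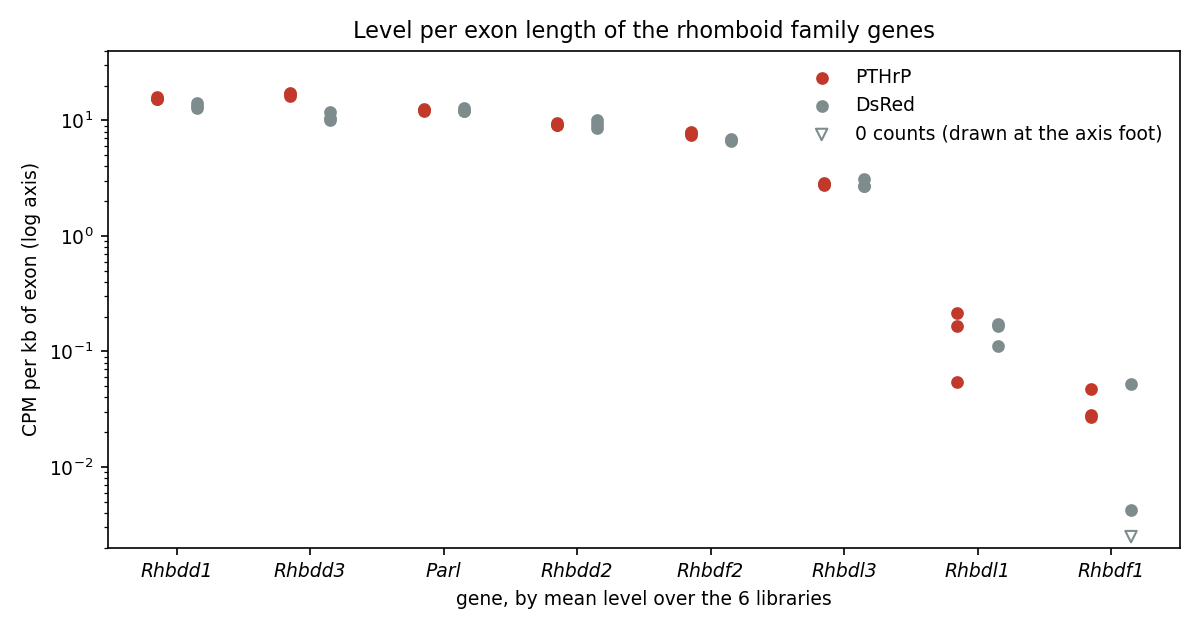
CPM per kb of exon of each gene and library on a log axis, PTHrP in red and DsRed in grey. Library values of Rhbdd3 lie at 16.4 to 17.4 in PTHrP and 10.1 to 11.9 in DsRed. Rhbdl1 and Rhbdf1 lie more than 1 decade under the rest, and the library with 0 counts is drawn at the foot.

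Genes with the profile most like that of Rhbdd3 were sought among 11801 genes whose mean log2 CPM reached 1, by the root mean square difference of log2 CPM over the 6 libraries after centring. They were Pck2 (0.08), Tmem144 (0.09), Dhrs13 (0.09), Zfr2 (0.10) and Particl (0.10), where the deviation of Rhbdd3 from its own mean was 0.33. Pck2, the mitochondrial phosphoenolpyruvate carboxykinase, had 193.0, 198.1 and 194.4 CPM in PTHrP, against 126.9, 124.0 and 127.3 CPM in DsRed. Tmem144, a membrane protein gene, had 8.98, 8.76 and 9.81 CPM in PTHrP, against 5.39, 7.04 and 6.23 CPM in DsRed, with the highest DsRed level in replicate 2, as for Rhbdd3. Groups did not overlap in any of the 5, which likeness to Rhbdd3 fixes.

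The other members were closest to other genes. Rhbdd1 was nearest to Tpp1, a lysosomal peptidase gene (0.02), Sars, the seryl-tRNA synthetase (0.02), and Glul, glutamine synthetase (0.02). Rhbdf2 was nearest to Wdr83, Mfsd10 and the synaptotagmin gene Syt9 (0.02 each), and Rhbdd2 to Slc22a17 and Asic1 (0.02 each). Parl was nearest to Fhl1, 0610009B22Rik and the dynactin gene Dctn5 (0.01 each), and Rhbdl3 to Klf7 and Brms1l (0.03 each). The deviations of these members from their own means were also small: Rhbdd1 0.11, Rhbdf2 0.10, Rhbdd2 0.07, Rhbdl3 0.07 and Parl 0.04. A small distance alone therefore says little about likeness. Beside the deviation, the nearest gene lay at 0.02 against 0.11 for Rhbdd1 and 0.02 against 0.10 for Rhbdf2. For Rhbdd3 it lay at 0.08 against 0.33. Distances are not ranked between members.

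The low-count members were farther from their nearest genes, but they also deviated more from their own means (0.57 for Rhbdl1). Rhbdl1 was nearest to Trio, Pcdh9 and Etv1 (0.18 each), genes low in PTHrP replicate 2: Etv1, a transcription factor gene, had 55.1, 20.4 and 48.8 CPM in PTHrP, against 43.7, 41.3 and 43.3 CPM in DsRed. Rhbdf1 was nearest to the histone gene H4c9 and to Extl1, at 0.95 and 0.99, as far off as most of its own deviation of 1.39. Neither is close to it by this measure.

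Genes of the processes that rhomboids take part in were counted from 8 lists with 99 tested genes. In the edgeR test over all genes 0 of the 99 passed. An unadjusted edgeR p under 0.05 was found for 17 of the 99, beside 8.9% of all genes tested. The lists were chosen with results of these libraries known, so nothing is read from this share or from the counts of single lists. Levels given for these genes are means of 3 libraries a group. With limma-voom 0 passed, and with DESeq2, which called 0.643% of all genes, 1 did (Hax1). Without the filter on low counts the edgeR test called 3 of them (Hax1, Selenos and Syvn1) and 0.495% of all genes. Without PTHrP replicate 2 it called 1 of them (Hax1) and 0.954% of all genes.

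Rhomboid-like proteins outside the members numbered 6 and had a median log2 fold change of -0.02. Tmem115, a Golgi rhomboid-like protein, had 77.8 CPM in PTHrP, against 72.7 CPM in DsRed (0.10, adjusted p = 0.678), Ubac2, an ER protein with a ubiquitin-associated domain, 0.11 (adjusted p = 0.735) and Derl2, a derlin of ER-associated degradation, -0.10 (adjusted p = 0.697). Rhbdl2, the rhomboid protease of the plasma membrane, was at 7.50 CPM in PTHrP, against 7.52 CPM in DsRed. Groups of this list did not overlap for 1 of 6 genes, against 16.3% of all genes in either direction.

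In the iRhom and ADAM17 shedding list (14 tested) the median was -0.03. Adam17 itself, the sheddase, had 24.4 CPM in PTHrP, against 25.4 CPM in DsRed (-0.06, SE 0.10, adjusted p = 0.904), and Frmd8, which stabilises the iRhom complex, had 55.2 CPM in PTHrP, against 56.2 CPM in DsRed. The 3 with the smallest p were Adam10, the related sheddase (-0.125, adjusted p = 0.554), and the TNF receptor genes Tnfrsf1a (0.14, adjusted p = 0.630) and Tnfrsf1b (-1.58, SE 0.79, at 0.124 CPM in PTHrP, against 0.369 CPM in DsRed, adjusted p = 0.600). Groups overlapped for Adam17 and Frmd8. Groups did not overlap for 3 of the 14 (1 higher and 2 lower in PTHrP), beside 16.3% of all genes in either direction.

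EGF family ligands are substrates of rhomboids and of ADAM17, and this list also holds their receptors and receptor regulators. Of its 14 tested genes, 10 had positive fold changes (median 0.18), beside 10295 of all 21141 genes tested. Among the positive genes, Btc, Nrg4, Erbb2 and Erbb4 were at low level with an SE above the fold change. Areg, with a negative fold change, was likewise low and imprecise. As for the other lists, nothing is read from this count. The receptor gene Erbb3 had 5.25 CPM in PTHrP, against 3.70 CPM in DsRed (0.50, adjusted p = 0.414), Lrig1, which restrains EGF receptors, 0.38 (adjusted p = 0.403) and the receptor inhibitor Errfi1 -0.28 (adjusted p = 0.399). The ligand Hbegf was at 9.81 CPM in PTHrP, against 8.53 CPM in DsRed, and Egfr at 6.19 CPM in PTHrP, against 5.52 CPM in DsRed. Groups overlapped for both. Signs of the ligands were mixed, with Tgfa at -0.31 and Nrg3 at 0.29, each with overlapping groups. Groups did not overlap for 2 of the 14, both higher in PTHrP, where 8.45% of all genes had such groups.

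Around Parl, the list of its substrates and the PINK1 pathway (13 tested) had a median of 0.09, and that of inner-membrane proteases and scaffolds (14 tested) 0.10, with 10 and 12 positive fold changes. Hax1, a mitochondrial anti-apoptotic protein, had 110.7 CPM in PTHrP, against 91.3 CPM in DsRed (0.28, adjusted p = 0.228). Diablo, the apoptosis activator that PARL cuts, had -0.34 (adjusted p = 0.426), and the fusion protein gene Mfn2 0.15 (adjusted p = 0.455). Of the second list, the matrix protease Lonp1 had 0.19 (adjusted p = 0.383), Stoml2, a scaffold that binds PARL, 0.13 (adjusted p = 0.574), and the protease subunit Clpp 0.18 (adjusted p = 0.535). Pink1 was at 98.4 CPM in PTHrP, against 91.1 CPM in DsRed, and its groups overlapped. Groups did not overlap for 4 higher and 2 lower genes of the 13 in the first list and for 5 higher genes of the 14 in the second, beside the same 16.3% of all genes in either direction. Since the lists were chosen with results of these libraries known, nothing is read from these shares.

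Partners of RHBDD1 in ubiquitin and p97 dependent ER-associated degradation (14 tested) had 7 positive and 7 negative fold changes and a median of -0.02. Vcp, which encodes p97, had 647 CPM in PTHrP, against 683 CPM in DsRed (-0.08, adjusted p = 0.740). Lower values stood with Selenos (-0.30, adjusted p = 0.314), Syvn1, the ubiquitin ligase Hrd1 (-0.29, adjusted p = 0.348), and its adaptor Sel1l (-0.17, adjusted p = 0.406). Groups did not overlap for 2 higher and 4 lower genes of the 14, beside 16.3% of all genes in either direction. As for the lists around Parl, nothing is read from this share. Selenos and Syvn1 passed without the filter on low counts. Rhbdd1, at 0.19, had the opposite sign to Selenos, Syvn1 and Sel1l.

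Intramembrane proteases of other classes (14 tested) had a median of 0.07. Sppl2b, a signal peptide peptidase-like protease, had 37.9 CPM in PTHrP, against 32.1 CPM in DsRed (0.24, adjusted p = 0.406), while the prenyl protein proteases had -0.19 (Zmpste24, adjusted p = 0.388) and 0.16 (Rce1, adjusted p = 0.520). Groups did not overlap for 3 higher and 1 lower of the 14, beside 16.3% of all genes in either direction. For the NEMO and A20 list (10 tested) the median was -0.02, with Chuk, a kinase of the NF-kB pathway, at -0.16 (adjusted p = 0.428), Tax1bp1 at -0.05 (adjusted p = 0.842) and the ubiquitin ligase gene Traf6 at -0.06 (adjusted p = 0.857). Ikbkg, which encodes NEMO, was at 27.1 CPM in PTHrP, against 25.2 CPM in DsRed, and Tnfaip3, which encodes A20, at 16.2 CPM in PTHrP, against 16.4 CPM in DsRed. All 10 fold changes of this list lay between -0.16 and 0.11. Groups did not overlap for 1 of the 10, Chuk, beside the same 16.3% of all genes.

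**Figure D5:**
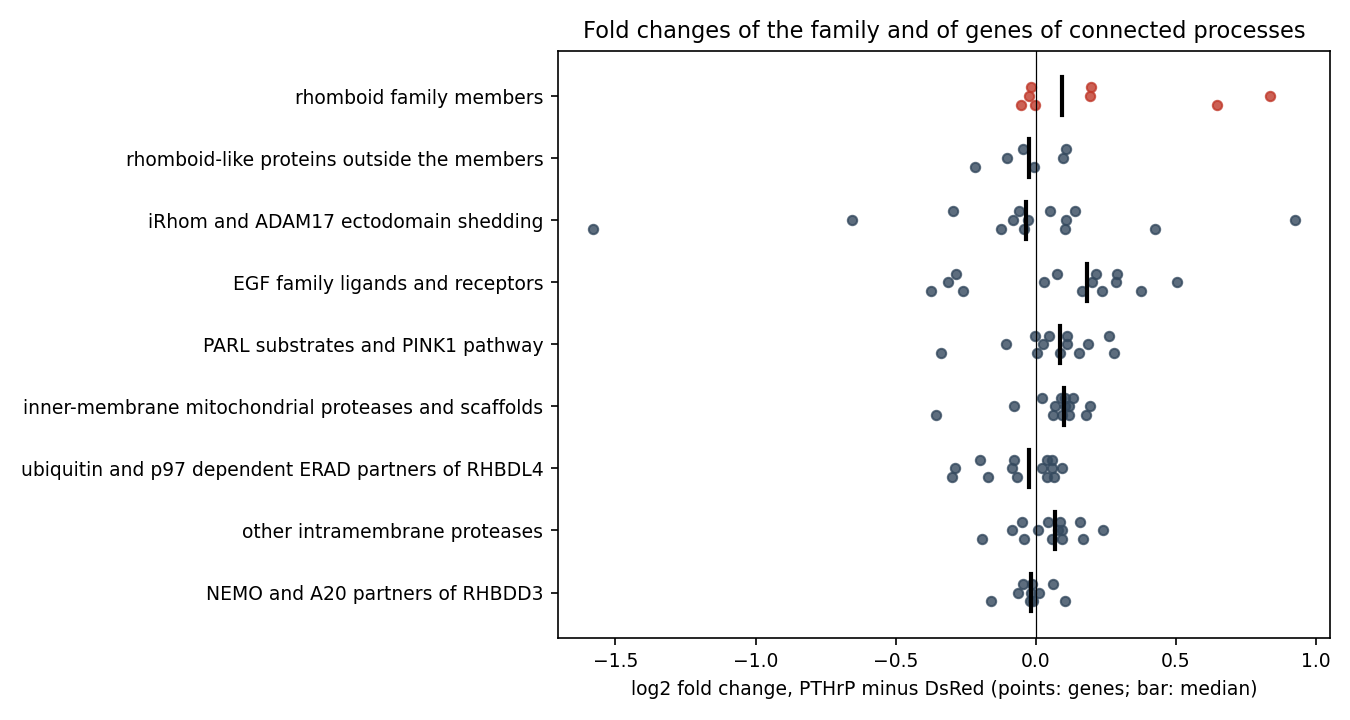
Log2 fold change, PTHrP minus DsRed, of the 8 rhomboid genes (red) and of the tested genes of 8 connected lists (dark), with the median of each as a bar. No dark point passed the adjusted threshold. The 2 red points far right are Rhbdd3 (0.65) and the low-count Rhbdf1 (0.83).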

How the data were processed

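The authors deposited raw gene counts in 1 table. Per the submitters' processing notes, bcl2fastq, STAR 2.7.9a, Subread and featureCounts 2.0.3 were used on GRCm38; the sources used here give no annotation, strand setting or rule for shared reads. The deposited table also gives a number of annotated transcripts per gene, an other value not used.

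After removal of 287 repeated entries with identical counts, 55487 genes remained; 21141 passed filterByExpr. Counts were scaled by TMM and tested with edgeR 4.0.16 (quasi-likelihood, robust, group term alone, R 4.3.3), two-sided, Benjamini-Hochberg threshold 0.05. The SE is the fold change divided by the square root of F. Groups and replicate numbers come from the library titles, which do not say that replicates were separate cultures, so p-values measure the spread between these libraries, which may be technical. No libraries agreed within sampling noise (chi-square per gene 6.51 to 39.9).

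Positions and exon lengths are from GENCODE M21, promoters from RefSeq. The members, lists and rule for named genes (all members, overlapping and neighbouring genes, the 3 smallest p per list, and most similar profiles) were chosen with earlier results of these data known. Alternatives were other scalings, filters and tests (DESeq2 1.42.0, limma-voom with limma 3.58.1), Pthlh left out, a replicate term and each library left out.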

Additional observations from a re-analysis of the deposited data

How the results depend on the processing

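With another scaling, filter or test, or with Pthlh left out, Rhbdd3 kept a log2 fold change of 0.64 to 0.65. It kept its side of the threshold in 8 of 8 such fits. It lost the call with the replicate block and in 5 of 6 fits without 1 library. These fits reuse the libraries whose call chose the family, so they are no separate support for that call. The number of genes past the threshold was 14 with library sizes alone, 220 without a filter on low counts and 136 with DESeq2, against 9; the cause was not tested. It ranged from 2 to 213 when 1 library was left out, and Rhbdd3 then from 0.60 to 0.72, past the threshold in 1 of 6 fits. With the replicate number as a block 7 genes passed, and Rhbdd3 had 0.65 with an adjusted p of 0.0505. Deviations of same-numbered libraries correlated at 0.023, -0.106 and 0.025, so the numbers are not read as pairs.

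Members near 0 changed sign. Rhbdd2 ranged from -0.0687 to 0.0456, Rhbdl1 from -0.45 to 0.33, Rhbdl3 from -0.0567 to 0.0451 and Parl from -0.0228 to 0.0304 when 1 library was left out, and Parl was at 0.0039 with library sizes alone and 0.0050 without the filter. Rhbdd1 and Rhbdf2 kept their sign in all 15 alternatives, and Rhbdf1 in the 14 that could measure it. Depth limits Rhbdl1 and Rhbdf1, which had at most 32 counts in a library.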
